A study of Mus musculus with 38 samples.

Results

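The 20 whole-brain arrays of a mouse study of chronic haloperidol were divided by the log2 value of the single probe that names Gh, the growth hormone gene. Arrays with Gh above 6 numbered 6 of 20, and 14 of 20 were at 6 or below. The whole series held 38 arrays. The mice were C57BL/6J, an inbred laboratory strain, bred within a few generations of founders from the Jackson Laboratory, and no source used here gives their age. The haloperidol group received the drug, which blocks dopamine D2 receptors and is used against psychosis, from slow-release pellets over 30 days, and the placebo group received placebo, with 10 brain and 9 liver arrays in each. A number and a letter in each title (1L, 4R) tag the array, and a liver array has the same tag as 18 of the brain arrays, although the labels do not say what a tag marks. Values are on a log2 scale as the authors' normalization left them, and the number of arrays limits the precision.

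The pituitary is an endocrine gland that hangs below the hypothalamus on a stalk, so it can stay on a dissected brain or be left behind in the skull. Its anterior lobe makes growth hormone in somatotropes and prolactin (Prl) in lactotropes. It also makes the glycoprotein hormones, which share the alpha subunit encoded by Cga and differ in the beta subunit encoded by Tshb, Lhb or Fshb. Pomc encodes the precursor of corticotropin and, in the intermediate lobe, of melanocyte-stimulating hormone. The transcription factor POU1F1 drives Gh, Prl and Tshb, and dopamine from the hypothalamus holds prolactin down through D2 receptors on lactotropes.

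The arrays were chosen by their Gh values, so every difference between the Gh groups in brain is given as a description, with no test. Gh was at 10.45, 10.19 and 7.26 in haloperidol 1R, 2N and 3B and at 11.49, 8.28 and 6.09 in placebo 1L, 2R and 4R. In the 14 other arrays it ran from 4.69 to 5.34 with a median of 5.09. The array just inside the limit was placebo 4R, and the array just outside was haloperidol 4T at 5.34. The 6 arrays thus spread over a wide range of Gh while the 14 lay close together. The 6 comprised 3 of 10 haloperidol and 3 of 10 placebo brains. Equal counts fix Fisher's exact test at a two-sided p of 1, so these counts only describe the split. Tags with the letter R were carried by 3 of them, haloperidol 1R and placebo 2R and 4R, and by haloperidol 3R among the 14 others. In liver, where growth hormone acts and is not made, Gh lay between 3.56 and 4.64, Prl between 2.04 and 2.86 and Cga between 2.97 and 3.81 on 18 arrays, a range that belongs to liver alone because the tissues appeared to have been normalized apart.

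Prl separated the groups as well, by a narrow gap. It was at 8.90, 8.95 and 5.63 in haloperidol 1R, 2N and 3B and at 9.03, 4.99 and 4.47 in placebo 1L, 2R and 4R. The 14 other arrays ran from 3.51 to 4.25 with a median of 3.92, so the lowest array above the limit and the highest one below it were 0.22 apart. Prl did not order the arrays exactly as Gh did: haloperidol 3B had more Prl than placebo 2R, 5.63 against 4.99, but less Gh, 7.26 against 8.28. The 3 arrays with the most Gh had nearly the same Prl, between 8.90 and 9.03, although their Gh differed by more than 1 log2 unit.

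Cga was highest on the arrays richest in Gh and overlapped on the others. It was at 6.97, 6.58 and 5.18 in haloperidol 1R, 2N and 3B and at 7.28, 5.92 and 5.30 in placebo 1L, 2R and 4R. The 14 other arrays ran from 4.72 to 5.79 with a median of 5.34. Haloperidol 3B and placebo 4R lay within that range, and the other 4 lay above it.

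**Figure D1:**
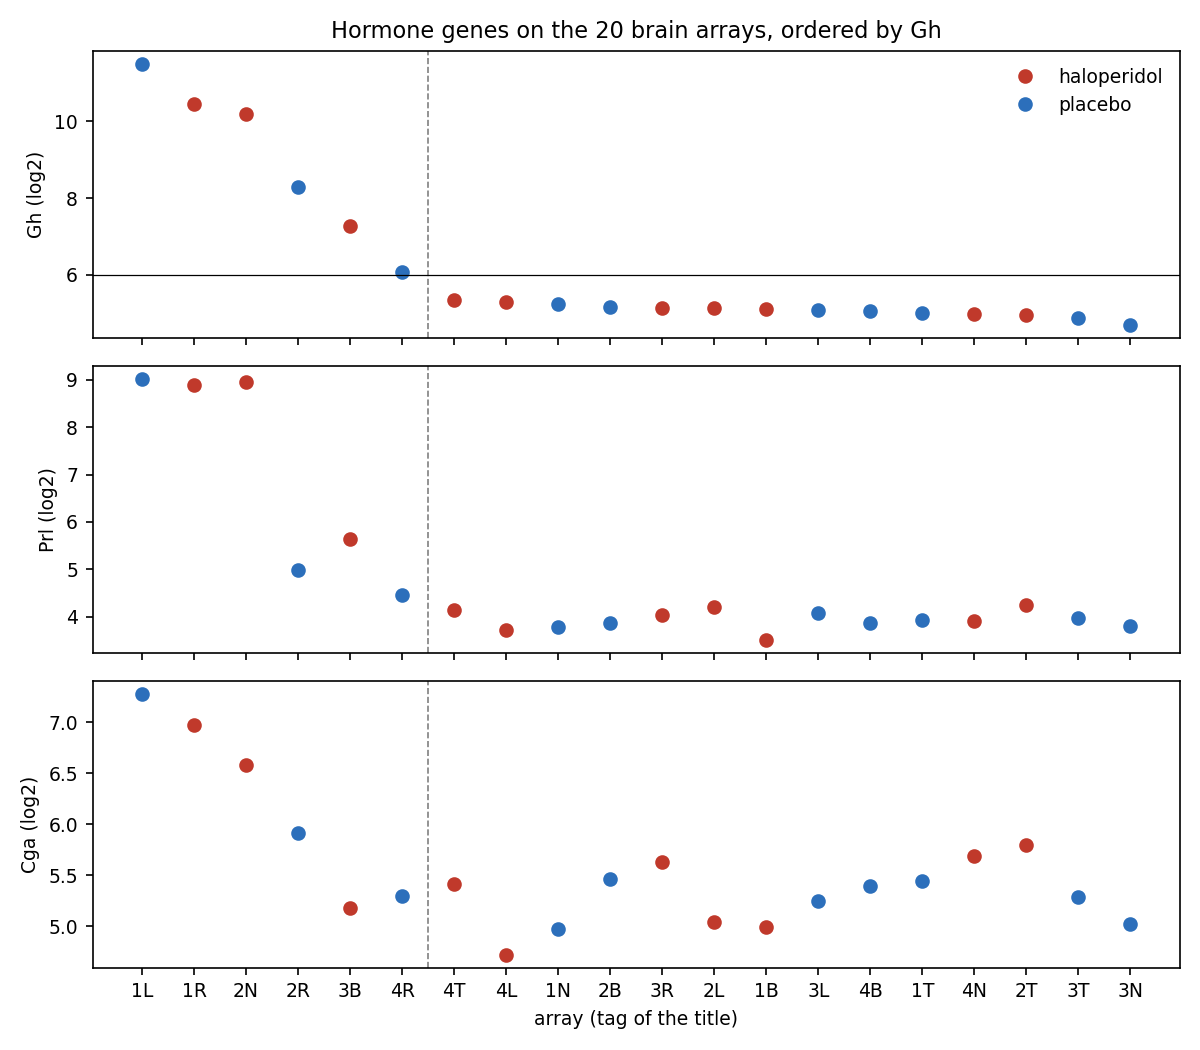
Log2 values of Gh, Prl and Cga (3 panels, vertical axes) on the 20 brain arrays, ordered from the highest Gh at the left, with 1 point per array coloured by treatment. The dashed line parts the 6 arrays with Gh above 6 from the 14 others, the solid line in the top panel is the limit of 6, and Prl at 4.47 in placebo 4R is the lowest value left of the dashed line.

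The first question was which other genes followed Gh across the arrays. A gene was counted where each of the 6 arrays lay above each of the 14, the difference fitted beside treatment was at least 0.5 log2 units, and Pearson's r with Gh among the 6 arrays was at least 0.9. Of 18820 genes, 2 met this (0.0106%), and these were Gh itself, which chose the arrays, and Prl. No gene met the mirror rule (0 of 18820, 0%). The separation alone, with no limit on size or on r, was met by the same genes upward (2 genes, 0.0106%) and by 0 genes downward (0%). Over all 35556 probes of the value table, unnamed ones included, the rule again found 2, of which 0 were unnamed.

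The fitted differences, arrays above 6 minus the others, were 3.88 for Gh, 3.06 for Prl and 0.91 for Cga. A difference of at least 0.5 was reached by 4 of the 18820 genes (0.0213%), the fourth being the microRNA gene Mir376a at 0.51. This holds for probes with a single symbol. Over all 35556 probes, 275 had a difference of at least 0.5 and 55 of -0.5 or less, with 9 at 1 or more and 3 at -1 or less. The median over 18820 genes was -0.01, and all genes other than Gh, Prl and Cga lay between -0.45 and 0.51. Among the 6 arrays Prl had an r with Gh of 0.936 and a Spearman's rho of 0.886, and Cga 0.970 and 0.943. Leaving out the 2 arrays whose Gh lay farthest from the median, r was 0.918 for Prl and 0.983 for Cga over 4 arrays. Over the 14 arrays at 6 or below, r was -0.012 for Prl and -0.201 for Cga. These correlations are descriptions over few arrays that fall into a high and a low cluster, and an r of at least 0.9 among the 6 was also found for 117 of the 18820 genes and an r of -0.9 or less for 82. Apart from Gh, Prl alone among those genes also had groups that did not overlap.

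**Figure D2:**
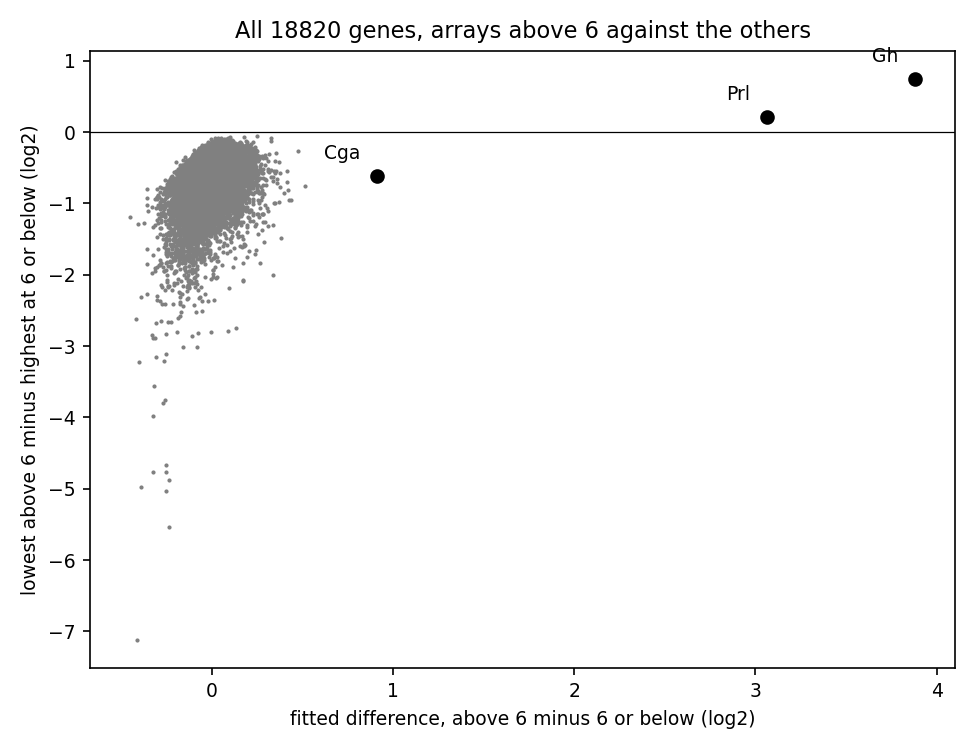
Each of 18820 genes by its fitted difference, arrays with Gh above 6 minus the 14 others (horizontal axis, log2), and by the lowest value above the limit minus the highest value below it (vertical axis, log2). Gh and Prl are the only points above the line at 0, at 0.75 and 0.22, and Cga lies under it at -0.61 with a difference of 0.91.

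Mir376a was higher on the arrays with Gh among haloperidol brains, and not among placebo brains, and the test of that interaction passed for 0 of 12547 genes in limma, with 260 at an unadjusted p under 0.05. It was at 6.75, 6.66 and 6.38 in haloperidol 1R, 2N and 3B, against a lowest value of 5.12, a median of 5.66 and a highest value of 6.23 in the 7 other haloperidol arrays. In the placebo arrays above the limit it was at 7.21, 6.66 and 6.21 in 1L, 2R and 4R, against 6.23 to 6.96 with a median of 6.67 in the 7 others. The Gh groups did not overlap among haloperidol arrays and overlapped among placebo arrays. The next gene by size was the microRNA gene Mir499, with a fitted difference of 0.48, at 4.41, 4.41 and 4.01 in haloperidol 1R, 2N and 3B and at 4.41, 4.67 and 4.14 in placebo 1L, 2R and 4R. Its range in the 14 other arrays was 3.58 to 4.27, so haloperidol 3B and placebo 4R overlapped with it. Other small RNA genes came after it by size: Rnu7 (0.44), Rnu5g (0.43), Mir140 (0.42), Mir222 (0.42), Mirlet7a-2 (0.41), Mir680-1 (0.38), Mir151 (0.36) and Mir186 (0.35). Genes of other kinds stood among them, such as Olfr715b (0.40) and Ifi214 (0.38). Each of these overlapped between the Gh groups. Whether small RNA genes shift as a class was not tested. At the other end the lowest fitted difference was -0.45, for the histone gene H2ac4, and no gene reached -0.5.

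The limit of 6 also admits arrays with little Gh, so the 3 arrays above 10, a limit added after the values were seen, were set against the 14 at or below 6. The fitted differences were then 5.65 for Gh, 5.02 for Prl and 1.66 for Cga. In this setting, in which no limit was put on r, 4 of 18820 genes met the rule: Gh, Prl, Cga and Mir499. Cga did not overlap, with a gap of 0.78, and Mir499 had a gap of 0.14. Groups that did not overlap were found for 18 of 18820 genes upward and 12 of 18820 downward. None of these beyond the hormone genes and Mir499 had a difference of 0.5 or more, and downward the zinc finger gene Zfp791 alone passed -0.5, at -0.51. With overlap allowed, 87 of 18820 genes had a difference of at least 0.5 and 162 of -0.5 or less. Only 3 arrays are compared with 14 here, so these counts, Mir499 included, stand as a description. Of the other members of the pituitary lists, some of which the brain also expresses, Scgn had a difference of 0.78, Drd2 0.39, Fshb 0.31 and Tshb 0.29. Members of the pituitary lists also went the other way, such as Anxa1 at -0.49, Trhr at -0.39 and Sox9 at -0.28. Each of the genes named here overlapped. Scgn and Drd2 were highest on placebo 1L, at 8.19 and 9.03. Without that array their differences at the limit of 6 were -0.18 and 0.00.

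The other hormone genes of the anterior and intermediate lobes did not separate the groups, and their probes were dim. Tshb was at 3.70, 3.40 and 3.15 in haloperidol 1R, 2N and 3B and at 3.70, 3.09 and 3.20 in placebo 1L, 2R and 4R, against 2.93 to 3.80 with a median of 3.25 in the 14 others. Lhb was at 5.25, 5.70 and 5.43 in the same haloperidol arrays and at 5.19, 5.04 and 5.35 in the placebo ones, against 4.77 to 6.02 with a median of 5.33. For both genes all 6 arrays lay within the range of the 14. Fshb was at 4.74, 4.65 and 4.21 in haloperidol 1R, 2N and 3B and at 4.46, 4.15 and 4.35 in placebo 1L, 2R and 4R, against 3.95 to 4.69 with a median of 4.33. Pomc was at 5.10, 5.43 and 6.13 in the haloperidol arrays and at 5.45, 5.27 and 5.41 in the placebo ones, against 4.95 to 5.83 with a median of 5.31. The highest Pomc value was thus in haloperidol 3B, an array with little Prl, and its r with Gh was -0.397 among the 6 arrays. The label of pituitary transcripts therefore rests on Gh, Prl and, in 4 of 6 arrays, Cga, and the arrays are called by their Gh value here. In bulk tissue, fewer cells of a type and less RNA per cell cannot be told apart.

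For POU1F1 no probe carried just that symbol, and its gene was not analysed here. For the 13 measured pituitary transcription factor genes the fitted differences lay between -0.09 and 0.11 with a median of 0.00. None reached 0.5 in either direction. The highest were Nr5a1, which specifies gonadotropes, at 0.11 and Hesx1, a factor of the early gland, at 0.11, while Gata2, a factor of thyrotropes and gonadotropes, was at -0.08. Tbx19, the factor of Pomc-producing cells, had 0.08, Lhx3 and Lhx4, which act early in the gland's formation, 0.09 and 0.01, and Foxl2, which acts in gonadotropes, -0.02. Pitx1 was at -0.03, Neurod4 at 0.04, Pax7 at 0.00, Isl1 at -0.07, Six3 at -0.01 and Six6 at -0.09.

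Receptors through which the hypothalamus and hormones act on the gland did not separate the groups either. The 10 genes lay between -0.15 and 0.16 with a median of 0.00, and none reached 0.5. Ghrhr, the receptor for growth hormone-releasing hormone, had the highest difference, 0.16, and Sstr2, a somatostatin receptor, the lowest, -0.15. Drd2, the D2 receptor through which dopamine restrains lactotropes and which striatal neurons also express, was at 0.12. It stood at 8.37, 8.66 and 7.97 in haloperidol 1R, 2N and 3B and at 9.03, 8.51 and 8.04 in placebo 1L, 2R and 4R, against 7.82 to 8.78 with a median of 8.34 in the 14 others. Placebo 1L alone lay above that range, and without it the difference was 0.00. Trhr, Gnrhr, Crhr1, Avpr1b, Ghsr, Sstr5 and Esr1 lay between -0.13 and 0.06. On the 14 arrays Crhr1, Drd2 and Sstr2 already averaged 8.37, 8.31 and 8.17, while Gnrhr and Avpr1b averaged 3.26 and 4.17. How much gland RNA would be needed to move such probes was not tested.

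Genes of the secretory granule are shared by endocrine cells and neurons, and their 11 measured members lay between -0.05 and 0.17 with a median of 0.00. Scgn, which encodes the calcium sensor secretagogin, was highest at 0.17, followed by the prohormone convertase gene Pcsk1 at 0.07. Both values turned without placebo 1L, to -0.18 for Scgn, which was at 8.19 on that array, and -0.02 for Pcsk1. Chga and Chgb, the granin genes, were at 0.00 each. Epithelial and folliculostellate genes, 9 in number, had a median of -0.13, and 2 were positive, Aldh1a2 and Cldn7 at 0.05 each. The keratin gene Krt8 was lowest at -0.20, followed by Anxa1 at -0.18 and Cdh1 at -0.16. Krt18 and Cyp2f2 were at -0.13 each and Epcam and Sox9 at -0.10 each. The 4 genes of posterior lobe pituicytes were all lower, between -0.28 for the homeobox gene Rax and -0.08 for Col25a1, with Lhx2 at -0.23 and Scn7a at -0.15. Every gene of these lists overlapped between the groups.

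**Figure D3:**
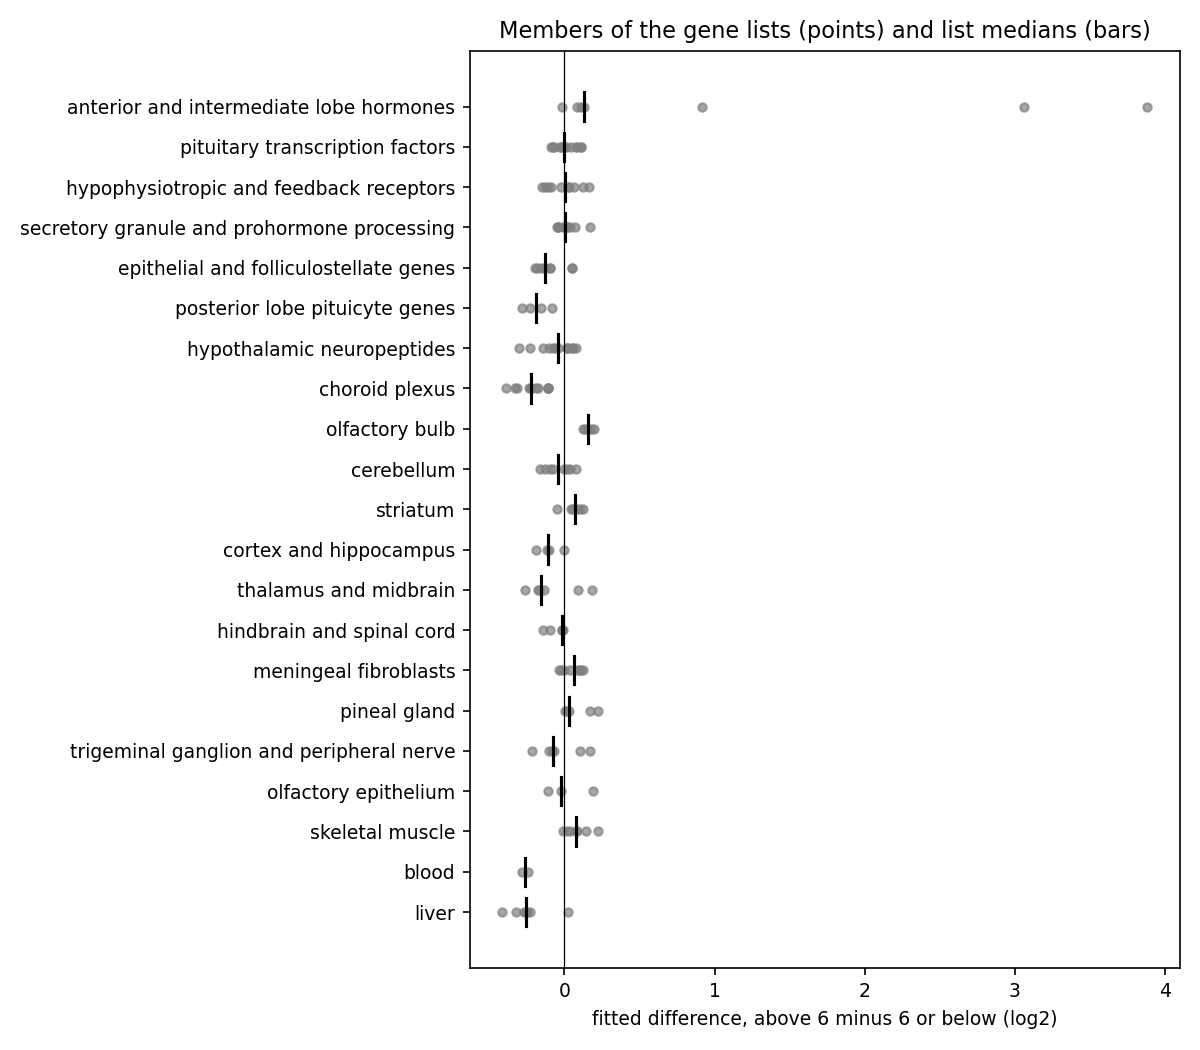
Fitted differences, arrays with Gh above 6 minus the 14 others (horizontal axis, log2), for the members of 21 gene lists, with 1 grey point per gene and a black bar at each list's median. Gh, Prl and Cga, at 3.88, 3.06 and 0.91, are the only points beyond 0.5 in either direction.

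Upstream sequences are shown for Prl and Cga because these were the genes beside Gh with the largest differences. They were taken from RefSeq on GRCm38.p6 as the 200 bases before the start of each gene, on the plus strand, at chr13:27057370-27057569 for Prl and chr4:34893579-34893778 for Cga. The table held no entry for Gh. Capitals mark matches to ATGNATA, a form of the POU1F1 motif, searched on both strands.
Prl: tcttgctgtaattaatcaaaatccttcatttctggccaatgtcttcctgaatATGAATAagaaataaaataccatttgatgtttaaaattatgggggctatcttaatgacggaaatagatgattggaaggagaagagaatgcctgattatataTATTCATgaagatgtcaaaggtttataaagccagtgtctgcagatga
Cga: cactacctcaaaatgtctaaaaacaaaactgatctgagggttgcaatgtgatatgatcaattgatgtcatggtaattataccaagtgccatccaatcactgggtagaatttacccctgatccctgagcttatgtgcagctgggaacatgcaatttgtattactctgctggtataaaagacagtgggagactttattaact
The Prl stretch held 2 matches, at positions -148 to -142 on the plus strand and -47 to -41 on the minus strand, counted back from the gene's start. The Cga stretch held 0. At least 1 match was found in 2006 of 32851 upstream stretches of that length, or 6.11%. A match is a run of letters and not a measured binding site.

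The next question was what else differed on the arrays with Gh, including other parts of the brain and tissues that border it. No member of the 15 lists for brain regions and neighbouring tissues reached 0.5 in either direction, and none separated the groups. Hypothalamic neuropeptide genes, the nearest neighbours of the stalk, had a median of -0.04 over 13 measured members, led by Hcrt, which encodes orexin, at -0.30 and Vip at -0.23. Choroid plexus genes were lower in 11 of 11 members, with a median of -0.22, Calml4 at -0.39 and the potassium channel gene Kcnj13 at -0.33. Olfactory bulb genes were higher in 5 of 5, with a median of 0.16, Doc2g at 0.20 and Cdhr1 at 0.17.

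The medians of the fitted difference in the other regions were -0.04 for cerebellum (En2 -0.16, Pcp2 -0.13), 0.07 for striatum (Rgs9 0.13, Pde10a 0.10), -0.11 for cortex and hippocampus (Neurod6 -0.19, Tbr1 -0.11), -0.15 for thalamus and midbrain (Slc6a3 -0.26, Slc6a4 0.19) and -0.02 for hindbrain and spinal cord (Chat -0.14, Slc6a5 -0.10). Meningeal fibroblast genes, which mark the membranes around brain and gland, had a median of 0.07 (Igf2 0.12, Slc6a13 0.11). Pineal genes had 0.03 (Tph1 0.22, Crx 0.17), ganglion and nerve genes -0.08 (Isl2 -0.21, Scn10a 0.17), olfactory epithelium -0.02 (Cnga2 0.19, Ano2 -0.11) and skeletal muscle 0.08 (Ckm 0.23, Myh4 0.15). Blood genes had -0.27 over 2 measured members (Slc4a1 -0.29, Alas2 -0.25), and liver genes -0.25 (Alb -0.42, Fgb -0.32). The liver gene difference moved with 1 library of the lower group: Alb was at 11.11 in haloperidol 4T and between 3.93 and 4.51 in the other 19 brain arrays. The neuronal gene Snap25 lay between 12.69 and 12.88 on every brain array.

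Placebo 1L, the array with the most Gh, stood apart from all others on several of these lists. Averaged over each gene's deviation from its own median, its choroid plexus genes were at -1.005, against -0.21 to 0.32 on the 19 other arrays. Its thalamus and midbrain genes were at -1.06 (-0.35 to 0.32 on the others) and its hindbrain and spinal cord genes at -0.46 (-0.18 to 0.34). Its cerebellum genes were at -1.41, and the next lowest array was haloperidol 1B, from the group at or below 6, at -1.08. The striatum genes of placebo 1L were the highest, at 0.64 (-0.33 to 0.24), while its olfactory bulb genes, at 0.65, were matched by haloperidol 4N at 0.65 and haloperidol 1R at 0.58. Single genes showed the same: Ttr, which encodes transthyretin of the choroid plexus, was at 10.99 in placebo 1L and between 12.12 and 12.42 in the other 5 arrays above the limit, against a median of 12.25 in the 14 others.

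Several of these lists moved when placebo 1L was left out, a setting added after the values were seen. The median fitted difference of choroid plexus genes was then -0.07, against -0.22 with all arrays, and 3 of 11 members were positive. That of olfactory bulb genes was 0.04, against 0.16, with 3 of 5 positive, and Cdhr1 turned to -0.04. The thalamus and midbrain median turned to 0.01, the hindbrain and spinal cord median to 0.02, and the striatum median to -0.05 with 0 of 6 members positive. The cerebellum median turned to 0.26 with 8 of 8 members positive, against -0.04 and 3 of 8 with all arrays. Its lowest array was then haloperidol 1B, from the group at or below 6. Prl and Cga had fitted differences of 2.57 and 0.68 without placebo 1L. The part of these region genes in the hormone values of placebo 1L was not tested.

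**Figure D4:**
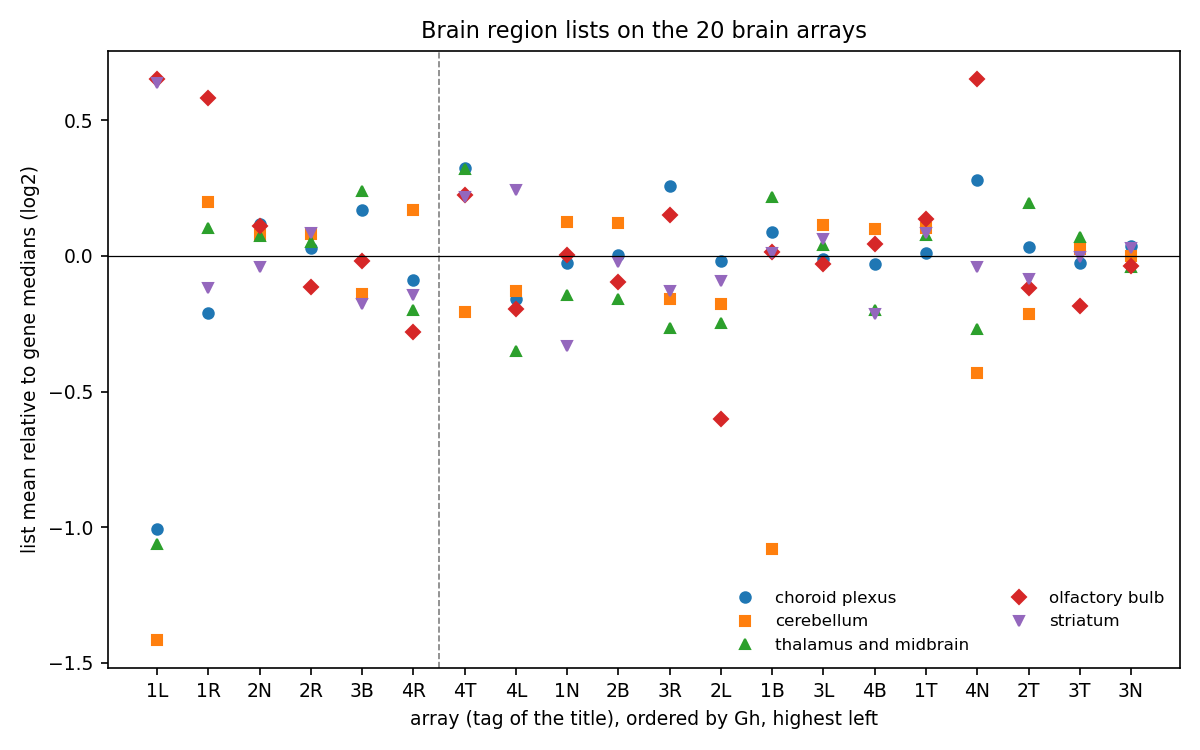
Mean deviation of the genes of 5 brain region lists from their medians over arrays (vertical axis, log2) on the 20 brain arrays, ordered from the highest Gh at the left, with the dashed line after the 6 arrays above the limit. Placebo 1L, at the far left, is lowest for choroid plexus (-1.005), cerebellum (-1.41) and thalamus and midbrain (-1.06).

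The array medians over all probes were 6.28 ± 0.08 on the arrays with Gh above 6 and 6.25 ± 0.10 on the 14 others (SD). By treatment they were 6.19 ± 0.07 in haloperidol and 6.33 ± 0.04 in placebo brains (SD, n = 10 each), so subtracting the array median adds 0.14 to each haloperidol difference.

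Treatment was not used to choose the arrays, so the haloperidol effect could be tested with the Gh group as a term. Among 12547 genes left after dim ones were removed, 3695 passed (29.4%) in limma with Benjamini-Hochberg adjustment, 1872 higher (14.9%) and 1823 lower (14.5%) with haloperidol. With the array median subtracted, 4086 were higher and 445 lower. Without the Gh term 3816 passed, of which 3663 were shared, 32 calls were gained by adding the term and 153 were lost. Because each treatment had 3 of 10 arrays above the limit, the term moved no log2 difference (largest move 0) and altered the standard error only, by a median factor of 1.02. The standard error was smaller with the term for 2838 genes, or 22.6%. Leaving out 1 of the 6 arrays gave 2542 genes without haloperidol 3B and 4663 without haloperidol 1R, and the 14 arrays at or below 6 alone gave 3467.

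The gained and lost calls lay near the threshold, and the genes named here were chosen by their adjusted p after the values were seen. Fezf1, a transcription factor gene of the forebrain, had a log2 difference of 0.21 (SE 0.071), with limma adjusted p-values of 0.0339 when the term was in the fit and 0.0645 when it was not. Has1, a hyaluronan synthase gene, at 0.17, the potassium channel gene Kcnk2 at 0.15 and Rffl at -0.14 were gained as well, with limma adjusted p of 0.0499, 0.045 and 0.037. Elmo2 (-0.11), Dennd4c (-0.15), Zfp704 (-0.16) and Brd8 (-0.14) were lost, with limma adjusted p of 0.0537 to 0.0569 with the term and 0.0464 to 0.0499 without it. The negative differences depended on the array level. With the array median subtracted, Rffl was at -0.005, Elmo2 at 0.02, Dennd4c at -0.01, Zfp704 at -0.02 and Brd8 at -0.005. In that setting Fezf1, Has1 and Kcnk2 were at 0.34, 0.31 and 0.29.

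Hormone genes themselves did not pass as haloperidol effects. Prl and Cga were too dim on average to be among the 12547 genes, and in the fit of all 18820 genes Prl had a haloperidol difference of 0.55 (SE 0.45, limma adjusted p = 0.421) and Cga 0.07 (SE 0.22, limma adjusted p = 0.855). In the arrays with Gh at or below 6, Prl averaged 3.97 ± 0.27 in haloperidol arrays and 3.90 ± 0.10 in placebo arrays (SD, n = 7 each, exact permutation p = 0.558, two-sided). Cga averaged 5.32 ± 0.41 in haloperidol arrays and 5.26 ± 0.20 in placebo arrays (exact permutation p = 0.714).

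Blocking D2 receptors is known to raise prolactin, so Prl was set against Gh on the 6 arrays that held both. The difference of their log2 values was taken within each array. It compares probes, so its level has no meaning and only its change between treatments is read. It was -1.55, -1.24 and -1.63 in haloperidol 1R, 2N and 3B, against -2.47, -3.29 and -1.62 in placebo 1L, 2R and 4R. Placebo 4R lay inside the haloperidol range, and the other placebo arrays lay below it. The means were -1.47 ± 0.21 in haloperidol arrays and -2.46 ± 0.84 in placebo arrays (SD, n = 3 each), a difference of 0.99. The exact two-sided permutation p was 0.2, or 0.4 after Benjamini-Hochberg over 2 ratios, but 3 against 3 arrays cannot go below 0.1 and Gh also chose the arrays, so the values stand as a description.

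Placebo 4R, the array that overlapped, holds the least Gh of the 6. When the mean level of the 14 arrays was subtracted first on the linear scale, the values were -1.56, -1.24 and -1.80 in haloperidol 1R, 2N and 3B, against -2.49, -4.09 and -2.34 in placebo 1L, 2R and 4R. These did not overlap, with a difference of 1.44. The value of placebo 4R rests on little signal, because its Prl of 4.47 was 0.22 above the highest of the 14 arrays. Those arrays ran from 3.51 to 4.25 in Prl, so the value depends on the level subtracted, and levels other than their mean were not tried. Leaving out 1 array at a time, the difference as deposited lay between 0.57 without placebo 2R and 1.41 without placebo 4R. Ratios to Cga are not read, because Cga in haloperidol 3B and placebo 4R lay within the range of the 14 arrays.

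**Figure D5:**
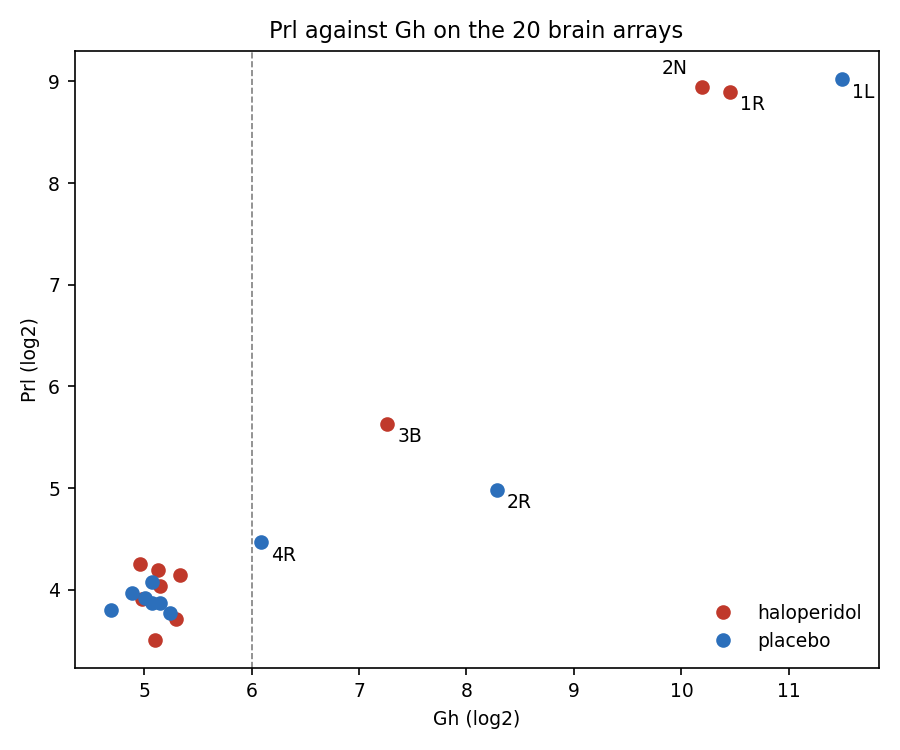
Log2 Prl (vertical axis) against log2 Gh (horizontal axis) on the 20 brain arrays, with 1 point per array coloured by treatment and tags beside the 6 arrays with Gh above 6, right of the dashed line. Haloperidol 3B lies higher than placebo 2R in Prl (5.63 against 4.99) although it lies lower in Gh.

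Whether haloperidol acted differently on arrays with and without Gh was tested by the interaction of treatment and Gh group. Of 12547 genes 0 passed (0%) in limma, with 260 at an unadjusted p under 0.05. The genes of smallest p had differences between the haloperidol effects, arrays above 6 minus the others, of -0.48 for Ly6g6f, 0.56 for Mybpc1, -0.67 for Cntnap3, -0.58 for Tnnt3, 0.49 for Rad51c, -0.54 for Slc16a3, -0.51 for 4930527J03Rik, 0.89 for Aqp6, -0.59 for Klhl25 and 0.41 for Nfatc3. All had a limma adjusted p of 0.9998. In the fit of all genes Prl had an interaction of 1.60 (SE 0.95, unadjusted p = 0.106 and adjusted p = 0.9998 in limma).

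With the log2 Gh value in place of the 2 groups, a slope is the change of the haloperidol difference per log2 unit of Gh. It is not the slope of a gene's own values on Gh. In this interaction 12 genes passed, all with a positive slope: Aqp6, Arhgef33, Zfp521, En2, Mab21l1, Fam107b, Neurod1, Rnf182, Lhx1, Nrep, Zbtb46 and Zic1. Of the 8 genes of the cerebellum list, 3 were called (En2, Neurod1 and Zic1) and 5 were not (Pcp2, Cbln1, Cbln3, Gabra6 and Calb1). Placebo 1L was the lowest of the 20 brain arrays for 10 of the 12 genes, with En2 at 6.20 there, against 6.69 or more on the others, and Neurod1 at 8.38, against 8.73 or more. Without placebo 1L, 0 genes passed and each of the 12 had a limma adjusted p of 0.9999. The slope was then lower by more than 1.5 times for 9 of them, with 0.19 for En2 and 0.10 for Neurod1 per log2 unit of Gh, against 0.35 and 0.34 over all arrays. The 3 others lost their call with a slope nearer its size: 0.23 against 0.26 for Aqp6, 0.11 against 0.15 for Fam107b and 0.11 against 0.13 for Zbtb46.

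Liver values played no part in the choice, so the liver arrays that share a tag with the brain arrays were compared by test. A shared tag is taken from the titles, and whether it marks the same mouse is not given in the sources used here. Liver arrays were available for 5 of the 6 tags with Gh above 6 in brain and for 13 of the others. Of 12547 genes 0 passed (0%) in limma, with 269 at an unadjusted p under 0.05. The genes of smallest p were Tppp (0.66), B020031M17Rik (0.65), Alox5ap (-0.29), Igkv4-55 (-0.84), Olfr467 (0.29), Gnb3 (0.45), Cyp26c1 (-0.39), Elobl (0.56), Fmod (-0.44) and Psd4 (-0.40), all with a limma adjusted p of 0.9999.

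Growth hormone acts on the liver through GHR and STAT5B and raises Igf1, which encodes the growth factor IGF-1, and the feedback inhibitor gene Socs2. Igf1 was at 11.24 ± 0.17 in livers whose tag had Gh above 6 in brain (SD, n = 5) and at 11.22 ± 0.18 in the others (SD, n = 13). The difference fitted beside treatment was 0.03 (SE 0.099, limma adjusted p = 0.9999). Socs2 was at 8.61 ± 0.96 in livers whose tag had Gh above 6 and 8.54 ± 0.71 in the others, with a fitted difference of 0.02 (SE 0.37, limma adjusted p = 0.9999). Of 13 targets left after dim genes were removed, 9 had a positive difference, with a median of 0.06 beside -0.01 over all genes tested, and 0 had an unadjusted p under 0.05 in limma. The share of positive differences over all genes was not counted, and the targets were not divided by the direction in which growth hormone moves them. The count of 9 is therefore not read as growth hormone action. In the fit of all genes the 2 dim targets, A1bg and Sult3a1, were at 0.01 and 0.06. The lowest was Cish, a STAT5B target and feedback inhibitor, at -0.69 (SE 0.52). The highest was Cyp7b1, a sterol hydroxylase gene with male-biased expression, at 0.22 (SE 0.14).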

How the data were processed

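Total RNA of whole brain and liver was measured on arrays. Per the submitters' processing notes, the authors' deposited log2 values come from RMA and Affymetrix Expression Console. No source used here gives their versions or the array model. The sources record no filter. RMA normalizes probe values between arrays, so differences in total RNA are not visible, while array medians of the summarised values still differed.

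There were 35556 probes and 0 missing values. The platform annotation in GEO, which can be old, gave 21218 probes a single symbol, 21185 of them matched to RefSeq by Entrez ID. Of several probes per gene the one with the highest mean was kept, which left 18820 genes. For tests, the 33.3% of genes with the lowest mean within a tissue were left out. Fits used limma 3.58.1 in R 4.3.3 (lmFit, eBayes), two-sided, with Benjamini-Hochberg adjustment over 12547 genes and a threshold of 0.05. Permutation and Fisher's exact tests used SciPy 1.17.1. Fits were also run on simulated data, the outcome of which is not given here. The 0 calls in the interaction and in liver thus come with no statement of the size of difference that could be found. The labels do not say that arrays of a group come from separate litters, so p-values measure the spread between these samples.

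Groups came from the labels and the Gh limit of 6 from the Gh probe. The members and the 22 gene lists were chosen with earlier results of these data known. Named genes were members of the pituitary lists, the 2 members of largest absolute difference in each other list, followers of Gh, and the 10 genes of smallest p in the interaction and in liver. Genes whose haloperidol call changed with the Gh term were to be ranked by the move of the log2 difference. All moves were 0, so they were chosen by adjusted p.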

Additional observations from a re-analysis of the deposited data

Results flagged for a closer look

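For 49 named genes, the highest and the lowest array of each treatment group in brain were checked for a gap to the next array that was large against the group's whole range (Dixon's criterion). Of 98 groups checked, 21 had one, 15 of them at placebo 1L and 3 at haloperidol 4T. Chance gives such a gap in about 1 in 20 groups, but the genes include Gh and were partly chosen for their difference between the Gh groups, so the count is not read against that rate.

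Placebo 1L was the highest placebo brain for Gh at 11.49 (next 8.28), Prl at 9.03 (next 4.99), Cga at 7.28 (next 5.92) and Scgn at 8.19 (next 6.51). It was also highest for the olfactory bulb genes Doc2g at 9.01 and Cdhr1 at 8.90 and for the striatal genes Rgs9 at 10.43 and Pde10a at 10.94. It was lowest for the choroid plexus genes Kcnj13 at 7.88 and Calml4 at 5.10, for the cerebellar genes En2 at 6.20 and Pcp2 at 6.87, for the dopamine transporter gene Slc6a3 at 6.79, the glycine transporter gene Slc6a5 at 6.97 and the orexin gene Hcrt at 6.48. Haloperidol 4T was the highest haloperidol brain for the liver genes Alb at 11.11 (next 4.45), Fgb at 7.43 (next 3.97) and Mup20 at 8.66 (next 3.38). The remaining values were Slc4a1, a red cell gene, at 6.62 in haloperidol 2T (next 5.93), Vip at 7.56 in placebo 4B (next 7.10) and Myh4, a muscle myosin gene, at 5.13 in placebo 2R (next 4.47).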

How the results depend on the processing

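Of the main results recomputed under alternatives, 71 values kept their side of the threshold or, for counts, stayed within 1.5 times, and 2 moved. The 71 include the differences of Prl minus Gh by treatment and the ratio of Prl to Cga, which is not read. Their exact permutation p could not go below 0.1, or 0.2 with 1 array fewer, so these values could not change side. Their place among the 71 is thus no sign of stability. The same holds for genes following Gh with r of at least 0.8 or a difference of at least 0.25, since only 2 genes separated. It also holds for the balance of treatment with a Gh limit of 5.5, which picks the same arrays. A count does not say which genes: with the array median subtracted 4531 genes passed as haloperidol effects, of which 2317 were among the 3695. The moved values were 12 genes in the interaction with log2 Gh in place of the split, which became 0 without placebo 1L, and 4 genes following Gh with a limit of 10 and no limit on r, a setting chosen after seeing the data. Leaving out 1 array above the limit in turn gave 2542 to 4663 haloperidol calls, 0 to 0 interaction calls, 0 to 0 liver calls, 2 to 2 genes following Gh and 0.57 to 1.41 for Prl minus Gh by treatment. With the tag digit as a replicate block, 3787 haloperidol, 0 interaction and 0 liver genes passed; the labels do not say what the digit marks. Array weights gave 4707 haloperidol calls, the filter on dim genes omitted 3387, and omission of haloperidol 4N and 4T and placebo 1L with no Gh term 2518. Among single genes, 383 values kept their call, 34 lost it and 25 gained it; of the gained ones 24 and of the lost ones 34 were haloperidol effects. The limits are the 6 arrays above the Gh limit, of which 3 hold little Prl, the dim probes of the other hormones, and the absence of a single-name probe for Pou1f1.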
